A study of Mus musculus with 4 samples.

Results

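Deubiquitinases, ubiquitin-conjugating enzymes (E2 enzymes) and proteasome subunits were taken from the authors' table of testis transcripts that differed between wild-type and Ppp2ca-cKO mice. Membership was decided by gene symbol alone: the ubiquitin-specific proteases (Usp), the OTU and UCH deubiquitinases, the Ube2 enzymes, the ubiquilins (Ubqln) and Ubxn proteins, the SENP and SUMO genes, and the proteasome genes Psma to Psmg. The rule found 122 transcripts of 83 genes among 11304 listed transcripts of 7453 genes. RNA came from the left testis of C57BL/6 mice at postnatal day 56, with 2 libraries of wild-type (WT) genotype and 2 of the genotype given as Ppp2ca-/- (cKO). The product of Ppp2ca is a catalytic subunit of the phosphatase PP2A, and the series asks how it bears on meiosis in male germ cells. The labels do not say which Cre line or promoter was used, nor in which cells the gene was deleted. The list held no transcript of Ppp2ca, so the targeted gene could not be used to check the genotypes.

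Ubiquitin is passed from an E1 to an E2 enzyme and then, usually with an E3 ligase, to a substrate protein, and deubiquitinases take it off again. Chains of ubiquitin can send a protein to the proteasome, a barrel-shaped core with regulatory caps, and ubiquilins and Ubxn proteins help to carry such proteins there. In the testis this system works on histones, synaptonemal complex proteins and the cytoplasm that spermatids shed, and several of its genes have forms made mainly in germ cells.

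Some of the transcripts differed from the better-known form of their gene in the protein they encode, and the stretches where they differ are shown because the counts below turn on them. Sequences are from GENCODE vM21 transcripts (GRCm38). Usp2 (chr9:44067021-44095627, plus strand) has a long and a short coding form that begin at different start codons. Usp2-203, the long form, was listed and Usp2-202, the short form, was not among the listed transcripts. The first 45 coding bases of each, with the start codon in capitals, are:
Usp2-203: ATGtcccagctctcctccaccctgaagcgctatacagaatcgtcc
Usp2-202: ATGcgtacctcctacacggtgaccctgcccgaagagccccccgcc

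Ube2k (chr5:65537233-65598988, plus strand) has a full coding sequence of 600 bases in Ube2k-201, which was not among the listed transcripts. The listed Ube2k-204 encodes 291 bases that equal the end of the full sequence from its base 310 on, so its start codon is an internal one. Its first 45 coding bases beside those of the full form, start codon in capitals, are:
Ube2k-201: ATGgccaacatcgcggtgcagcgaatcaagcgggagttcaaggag
Ube2k-204: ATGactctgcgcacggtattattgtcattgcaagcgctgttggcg

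The listed Ube2k-205 lacks 129 coding bases in frame, shown here in capitals with 24 bases on each side:
Ube2k-201: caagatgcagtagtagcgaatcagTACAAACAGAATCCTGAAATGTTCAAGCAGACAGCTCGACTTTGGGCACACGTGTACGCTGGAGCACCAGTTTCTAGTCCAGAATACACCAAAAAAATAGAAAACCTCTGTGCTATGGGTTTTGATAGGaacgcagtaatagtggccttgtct
Ube2k-205: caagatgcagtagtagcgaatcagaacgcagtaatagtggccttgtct

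Ube2v1 (chr2:167607638-167632095, minus strand) is the reverse case, because its listed form was seen in the cKO and not in the WT. Ube2v1-201 has 315 coding bases and lacks 126 in-frame bases of the 441 in Ube2v1-202, again in capitals:
Ube2v1-202: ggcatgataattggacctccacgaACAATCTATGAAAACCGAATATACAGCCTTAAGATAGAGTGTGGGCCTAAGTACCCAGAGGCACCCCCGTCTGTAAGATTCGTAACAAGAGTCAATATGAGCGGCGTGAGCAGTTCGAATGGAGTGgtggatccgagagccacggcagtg
Ube2v1-201: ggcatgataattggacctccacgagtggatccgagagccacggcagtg

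Values are given as normalized read counts, the authors' expected counts divided by their size factors, in the order WT replicate 1, WT replicate 2, cKO replicate 1 and cKO replicate 2. Levels of different genes are set side by side only as FPKM, which divides by transcript length. Library totals were 17612367 to 19834986 reads, of which the listed transcripts took 43.3% and 44.5% in the WT, against 24.4% and 25.5% in the cKO. Elongating spermatid markers were lower in the cKO, with 13 of 15 called lower, and their summed level was 274290 and 301385 in the WT against 11719 and 26708 in the cKO. Round spermatid markers were called lower in 11 of 11 listed genes, with sums of 27508 and 31129 against 4639 and 5433. Spermatocyte markers were called lower in 5 of 8 listed genes, with sums of 103998 and 120601 against 38048 and 43747. The list of 12 spermatocyte markers also held Sycp1, Sycp2, Sycp3 and Tcfl5, which were not on the authors' list. Sertoli markers, from the somatic cells of the tubules, were called higher in 7 of 11, with sums of 18010 and 19454 against 44776 and 46786. Leydig markers were called higher in 5 of 5, with sums of 6372 and 6169 against 21606 and 29691. Of 6 leukocyte markers 3 were called higher and 1 lower, while their sums were lower in the cKO, at 4105 and 3734 against 2633 and 2573. Of 9 spermatogonia markers 1 was called higher and 1 lower, with a median log2 fold change of 1.39 but sums of 8887 and 12461 against 6429 and 7370. The full lists held 12 round spermatid, 14 Sertoli, 8 Leydig, 8 leukocyte and 11 spermatogonia genes. Counts and sums cover only the listed ones, and the unlisted markers were not analysed. None of these listed markers was at 0 in both libraries of a genotype. The part of these cell types in the results below was not tested, and in bulk tissue fewer cells of a type and less RNA per cell cannot be told apart.

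The cKO libraries also differed from each other. With 1 read added to each count, the log2 ratio of cKO replicate 2 to replicate 1 had a median of 1.85 over elongating spermatid markers, against 0.56 for round spermatid, 0.27 for spermatocyte and -0.15 for Sertoli markers. The ubiquitin-system transcripts had a median of 0.27 and all listed transcripts one of 0.09.

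Most listed ubiquitin-system transcripts were lower in the cKO. By the signs in the authors' deposited table, 100 of the 122 were lower and 22 higher, so 82.0% were lower, against 66.9% of all listed transcripts. The table holds only transcripts that the authors had called on this same comparison, so all 122 lie outside the overlap of the groups (100 below, 22 above) by the choice of the list, where 66.9% and 33.1% of all listed transcripts did, and no support is drawn from this. In edgeR's quasi-likelihood test with the authors' size factors, adjusted over all 64840 transcripts they tested, 55 of 117 tested transcripts were called lower and 8 higher at an adjusted p under 0.05. That is 47.0% lower, near the 41.3% of all 10716 listed transcripts tested, and 6.84% higher, against 10.4%. The median log2 fold change was -1.74, and -1.70 over all listed transcripts. With cKO replicate 1 left out 70 members were called lower and 15 higher, and with cKO replicate 2 left out 84 and 14. With WT replicate 1 or 2 left out edgeR called 0 lower and 0 higher, with 96 of 119 and 88 of 116 tested members at an unadjusted p under 0.05. Every call named below was thus lost without either WT library.

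The split between lower and higher depended on the scaling. Scaling to library totals gave 34 lower and 18 higher, TMM and RLE of the listed transcripts gave 16 lower and 21 higher each, and equal Sertoli marker counts gave 96 lower and 3 higher. Relative to the authors' size factors these scalings shifted all log2 ratios by 0.53, 1.52, 1.56 and -1.29. TMM turned the sign of 28 of 115 transcripts, all from lower to higher, and equal Sertoli counts turned 4 the other way. Under all 5 scalings 16 transcripts were called lower and 3 higher (see the plot of these transcripts by library). The other transcripts called among the 122 lost their call under at least 1 of the scalings, in most cases under TMM and RLE.

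**Figure D1:**
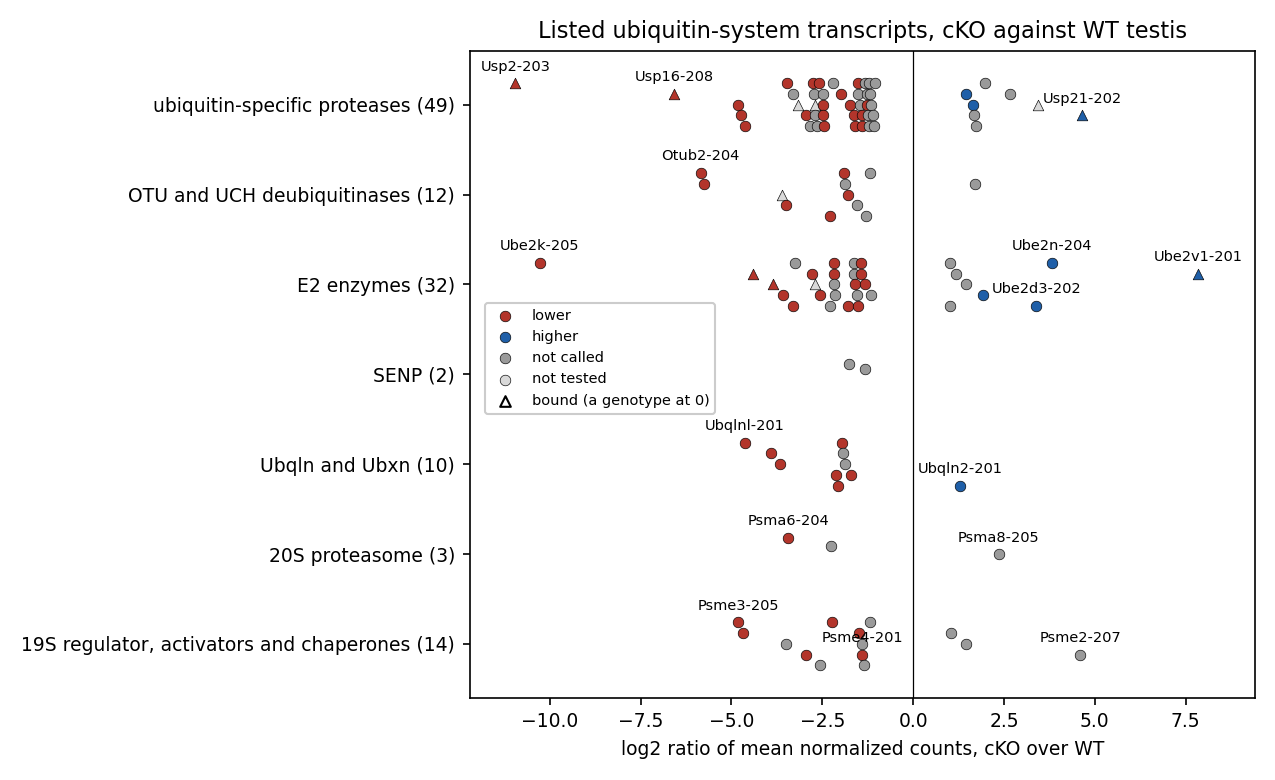
Log2 ratio of mean normalized counts (cKO over WT, authors' size factors) for the 122 listed transcripts in rows by family, coloured by call, with triangles marking bounds where a genotype had 0 reads. Points with a ratio under 0 number 100, and under TMM scaling 28 of 115 tested ones change sign.

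**Figure D2:**
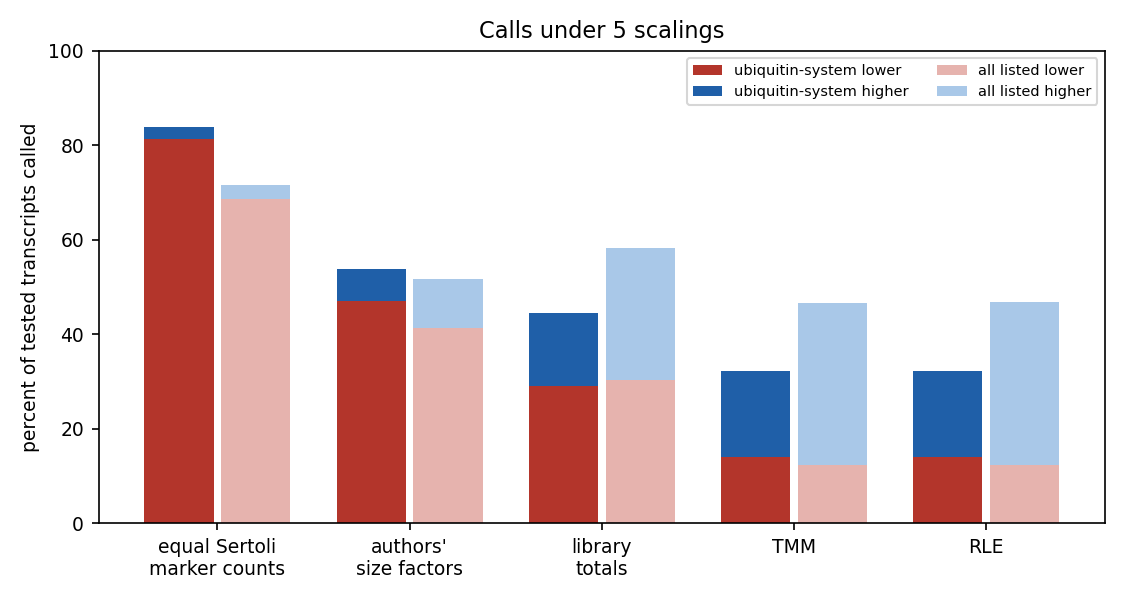
Percent of tested transcripts called lower or higher in the cKO under 5 scalings, for the ubiquitin-system transcripts (dark) and for all listed transcripts (pale). The share of ubiquitin-system transcripts called lower runs from 13.9% under TMM and RLE to 81.4% with equal Sertoli marker counts, and from 12.3% to 68.7% in all listed transcripts.

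Deubiquitinases made up 61 of the transcripts, from 40 of 70 annotated genes. Of 57 tested, 26 (45.6%) were called lower and 3 (5.26%) higher, against 41.3% and 10.4% of all listed transcripts tested. The median log2 fold change was -1.62, against -1.70 over all listed transcripts. Under TMM 7 were called lower and 8 higher, where 12.3% and 34.5% of all listed transcripts were. Usp2 encodes a protease whose loss impairs male fertility in mice. Usp2-203 stood at 2146, 2614, 0 and 0 normalized counts, from 3987 expected reads over the WT libraries and 0 over the cKO libraries. Both WT libraries were high and both cKO libraries stood at 0, at least 1974-fold lower (floor of 3 reads over the group, adjusted p = 0.0154). Usp2-208 below has the same coding sequence, so reads within it fit both transcripts. The floor does not cover how such reads were shared out.

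Usp2-208, whose 1857 coding bases are identical to those of Usp2-203, stood at 706, 683, 4.04 and 48.0. The WT libraries were close together and the cKO libraries differed from each other by more, with replicate 2 the higher one. The log2 fold change was -4.73 ± 0.99 (SE, adjusted p = 0.0475), and it lost its call under TMM, RLE and a filter of 1 CPM, though not its direction. Without cKO replicate 1 it was -3.85 and without cKO replicate 2 it was -7.38. Usp2-204, annotated as a target of nonsense-mediated decay, stood at 424, 187, 46.1 and 63.2 (log2 fold change -2.48 ± 0.52, adjusted p = 0.0467). Its call too was lost under TMM, RLE, library totals and the 1 CPM filter. Usp2-205, a non-coding transcript, stood at 322, 485, 12.1 and 113 and was not called (-2.69 ± 0.96, adjusted p = 0.208).

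Summed normalized counts of the listed Usp2 transcripts were 3598 and 3969 (WT) and 62.2 and 224 (cKO). Usp2-203 made up 59.7% and 65.9% of them in the WT libraries and had no read in either cKO library, while Usp2-208 made up 19.6% and 17.2% in the WT, against 6.49% and 21.4% in the cKO. What remained in the cKO was mostly Usp2-204 in replicate 1 (74.0%) and Usp2-205 in replicate 2 (50.4%).

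**Figure D3:**
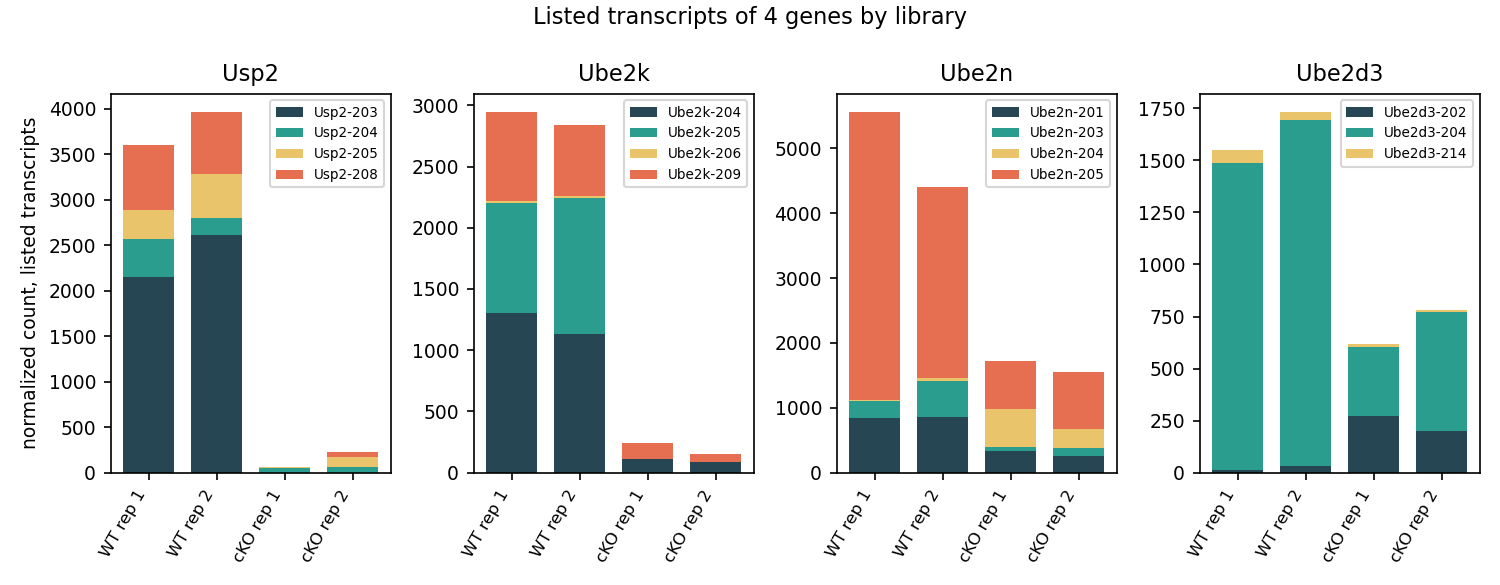
Normalized counts of the listed transcripts of Usp2, Ube2k, Ube2n and Ube2d3, stacked per library. Usp2-203 and Ube2k-205 fill a large part of the WT bars and are at or near 0 in the cKO bars, while Ube2n-204 and Ube2d3-202 take a larger share of the cKO bars than of the WT bars.

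Other Usp transcripts were called lower as well. Usp44-202, which encodes a protease of the mitotic checkpoint, stood at 4611, 5231, 628 and 842, with both cKO libraries far under both WT libraries (log2 fold change -2.74 ± 0.27, adjusted p = 0.0155). Usp25-201 stood at 4922, 6031, 709 and 1114 (-2.59 ± 0.32, adjusted p = 0.019), a call lost under TMM and RLE. All 3 listed transcripts of Usp50, whose human protein lacks protease activity, were called lower. Usp50-201 stood at 1091, 1432, 57.4 and 170 and Usp50-202, which lacks 183 in-frame coding bases, at 405, 335, 5.66 and 24. The call of Usp50-201 was lost under TMM and RLE. Usp50-205, a retained-intron form, stood at 201, 231, 4.85 and 10.4 (-4.80 ± 0.52, adjusted p = 0.0166). Usp50 was lower in each library of the cKO by more than the WT libraries differed, and the lower cKO library was replicate 1 for all 3 transcripts. Usp16-208, a retained-intron form of a histone H2A deubiquitinase, had 191 reads in the WT and 0 in the cKO, at least 95.5-fold lower.

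The Usp transcripts of highest count, a ranking that does not divide by length, had smaller changes, whose sign depended on the scaling. Usp8-201, from a protease of endosomes, stood at 11152, 10299.8, 4756 and 4156, a log2 fold change of -1.27 ± 0.22 (adjusted p = 0.0332) that turned to 0.26 under TMM. Usp47-206 stood at 6249, 5621, 1889 and 2619, and its log2 fold change was -1.40 ± 0.26 (adjusted p = 0.0377) and turned to 0.11 under TMM. Usp1-202, from a protease of the DNA damage response, stood at 9980, 9026, 4906 and 3264 and was not called (-1.22 ± 0.28, adjusted p = 0.0611), with a sign that turned to 0.31 under TMM.

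Among 12 OTU and UCH transcripts, 6 of 11 tested (54.5%) were called lower and 0 higher by edgeR. The shares over all listed transcripts tested were 41.3% and 10.4%. Only Otud5-201 was higher, and DESeq2 called it. Its unadjusted p in edgeR was under 0.05, as it was for all 117 tested members by the choice of the list. Otub2-201, from an OTU protease, stood at 3439, 3541, 250 and 366 (-3.50 ± 0.30, adjusted p = 0.0154). Otub2-204, a shorter model whose annotation is incomplete, stood at 209, 162, 2.42 and 4 (-5.80 ± 0.53, adjusted p = 0.0154). In both, the 2 cKO libraries lay close together and far from the WT. The proteasome-bound deubiquitinase Uchl5 was lower as well, with Uchl5-201 at 795, 499, 164 and 102 (-2.28 ± 0.41, adjusted p = 0.034), a call lost under TMM, RLE and library totals. Otud4-201, a retained-intron form, stood at 139, 78.5, 0 and 4 (-5.68 ± 1.03, adjusted p = 0.0344), a call lost under TMM and RLE. Otud7b-203 stood at 2292, 3059, 1247 and 919 and was not called (-1.30 ± 0.29, adjusted p = 0.054), with a sign that turned to 0.23 under TMM. Otud3-201 stood at 1605, 2004, 352 and 609 (-1.91 ± 0.35, adjusted p = 0.0357), a call lost under TMM and RLE.

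Usp22-201, Usp19-205 and Usp21-202 were the deubiquitinase transcripts called higher. Usp22 belongs to the SAGA chromatin complex, and Usp22-201 stood at 614, 802, 1777 and 2087 (1.45 ± 0.27, adjusted p = 0.0355). Both cKO libraries were above both WT libraries. Usp21-202 had 0 reads in the WT and 112 in the cKO, which made it at least 25.1-fold higher (adjusted p = 0.0246). It was called under all 5 scalings, whereas Usp22-201 and the retained-intron form Usp19-205 (1.64 ± 0.34) were not called with equal Sertoli counts.

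E2 enzymes made up 32 transcripts of 21 genes, 20 of them among 37 annotated protein-coding E2 genes and 1 the pseudogene Ube2n-ps1. Of 31 tested, 15 (48.4%) were called lower and 4 (12.9%) higher, against 41.3% and 10.4% of all listed transcripts tested. The median log2 fold change was -1.61, and under TMM 3 were lower and 8 higher. Ube2k, an E2 that builds ubiquitin chains, was lower in all 4 of its listed transcripts, each of them called. The calls of Ube2k-206, with 29 reads in all, and Ube2k-209 were lost under TMM and RLE. Ube2k-205, the form without the 129 bases printed above, stood at 899, 1112, 1.62 and 0. It rested on 1684 reads in the WT and 2 in the cKO, a ratio of 1253 (95% exact counting interval 346 to 10358, adjusted p = 0.0154). Ube2k-204, with the internal start codon, stood at 1304, 1131, 111 and 91.2 (-3.59 ± 0.29, adjusted p = 0.0154). The share of Ube2k-205 among the listed Ube2k counts was 30.5% and 39.1% in the WT, while that of Ube2k-204 was 44.2% and 39.8% in the WT, against 45.7% and 61.0% in the cKO.

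Ube2j1, an E2 of the endoplasmic reticulum membrane that is needed for sperm formation in mice, was called lower in both listed transcripts. Ube2j1-201 stood at 1411, 1198, 101 and 162 (-3.31 ± 0.35, adjusted p = 0.0162), and Ube2j1-202 at 3107, 2736, 862 and 1061 (-1.60 ± 0.25, adjusted p = 0.0258). The shorter Ube2j1-201 made up 31.2% and 30.5% of the listed Ube2j1 counts in the WT, against 10.49% and 13.2% in the cKO. The annotation of Ube2j1-201 is incomplete. The call of Ube2j1-202 was lost under TMM and RLE, and that of Ube2j1-201 was not lost under any scaling. Ube2d2b-201, from an intronless relative of Ube2d2a, stood at 5197, 4878, 2085 and 1924 (-1.33 ± 0.22, adjusted p = 0.0294), which turned to 0.19 under TMM. Its coding sequence is 92.7% identical to that of Ube2d2a.

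In Ube2d3, Ube2n and Usp11 the listed transcripts went in opposite directions, and these were the 3 of 26 genes with more than 1 listed transcript where this happened. Ube2d3-204 stood at 1475, 1662, 334 and 574 (-1.79 ± 0.34, adjusted p = 0.0378), while Ube2d3-202 stood at 12.2, 32.8, 271 and 199 (3.37 ± 0.57, adjusted p = 0.0297). Both encode the same 441 coding bases, so they differ outside the coding sequence. The call of Ube2d3-204 was lost under TMM, RLE and library totals, and that of Ube2d3-202 with equal Sertoli counts. The Usp11 transcripts, both retained-intron forms, were not called, with Usp11-203 at 44.0, 16.4, 4.04 and 5.60 and Usp11-204 at 4.89, 28.1, 111 and 98.4. The share of Ube2d3-202 in the listed Ube2d3 counts was 0.79% and 1.89% in the WT, against 43.9% and 25.5% in the cKO.

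Ube2n works with Ube2v1 or Ube2v2, E2-like partners without a catalytic cysteine, to build a chain type used in signalling and DNA repair. Ube2n-205, annotated for nonsense-mediated decay, stood at 4443, 2944, 736 and 888 (-2.19 ± 0.30, adjusted p = 0.0221), a call lost under TMM and RLE. Ube2n-204, a non-coding form, stood at 24.5, 38.7, 599 and 291 (3.81 ± 0.53, adjusted p = 0.0222) and was called higher under all 5 scalings. Its share of the listed Ube2n counts was 0.44% and 0.88% in the WT, against 34.7% and 18.7% in the cKO. The full coding form Ube2n-201 stood at 848, 860, 334 and 256, a log2 fold change of -1.53 ± 0.28 (adjusted p = 0.0348) that turned to 0.04 under RLE. The pseudogene Ube2n-ps1 had the highest level per length of all members, at 550, 497, 126 and 137 FPKM. Its sequence is identical to the Ube2n coding sequence over all 456 bases, so reads of the 2 cannot be told apart by that sequence. The values of both, and with them the Ube2n shares, are uncertain. The call of Ube2n-ps1 itself (-2.56 ± 0.24, adjusted p = 0.0154) was lost under TMM and RLE.

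Ube2v1-201 stood at 0, 0, 238 and 584, with 0 reads in the WT and 1024 in the cKO, at least 229-fold higher (adjusted p = 0.0192). The cKO libraries differed from each other, and both were far above the WT. The annotated gene Gm20431 on the same strand covers 97.5% of the bases of Ube2v1-201, so the assignment to Ube2v1 is uncertain. Ube2v2-201 stood at 730, 1054, 182 and 394 and was not called (-1.63 ± 0.45, adjusted p = 0.0983).

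**Figure D4:**
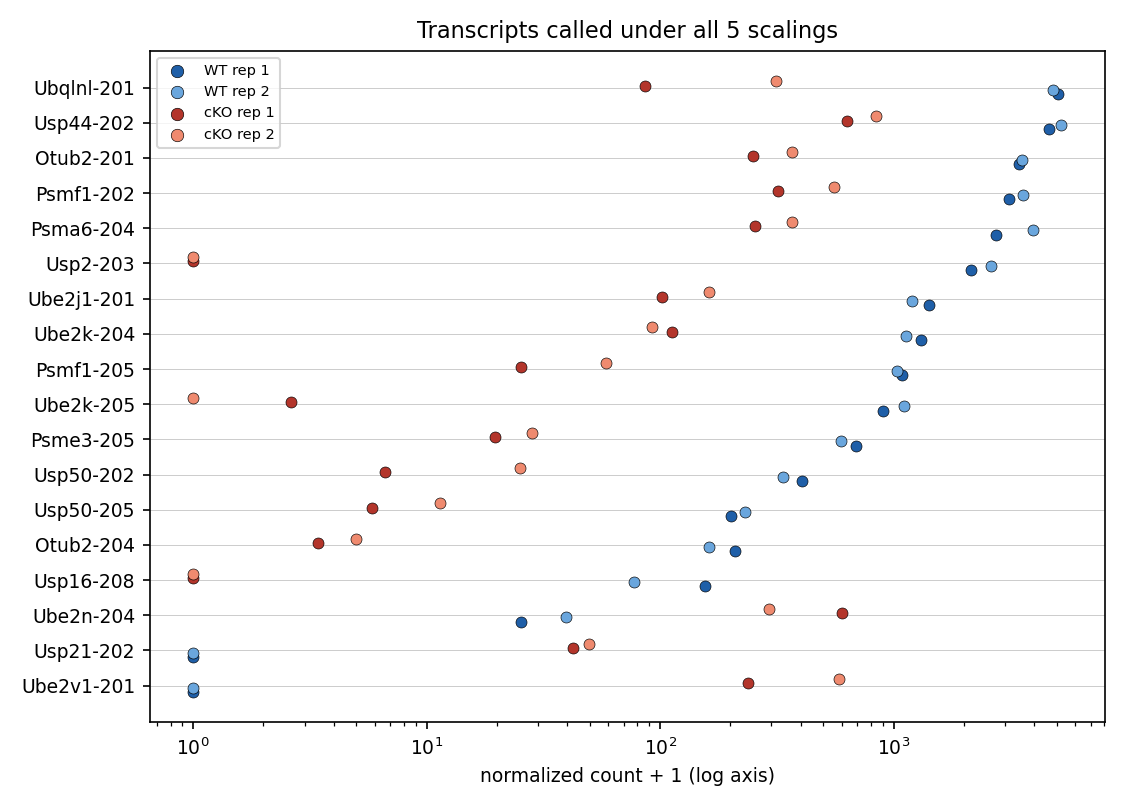
Normalized counts plus 1 (log axis) in each library for 18 of the 19 transcripts called under all 5 scalings, with 1 of the 16 lower ones not shown. In 15 transcripts both cKO points lie left of both WT points, in 3 they lie right of them, and points at 1 stand for 0 reads.

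Ubiquilins, Ubxn proteins and the SUMO proteases SENP made up 12 transcripts of 10 genes. Of these, 7 (58.3%) were called lower and 1 (8.33%) higher, against 41.3% and 10.4% of all listed transcripts tested. The median log2 fold change was -1.94, and under TMM 2 were lower and 1 higher. Ubqln5-201 stood at 1550, 1929, 47.7 and 186 (-3.90 ± 0.68, adjusted p = 0.0319). Ubqlnl-201 stood at 5039, 4836, 84.8 and 311 (-4.64 ± 0.67, adjusted p = 0.0234). In both, the cKO libraries were far below the WT and replicate 2 was above replicate 1. Without cKO replicate 1 the log2 fold change of Ubqlnl-201 was -3.99 and without cKO replicate 2 it was -5.86. The call of Ubqln5-201 was lost under TMM and RLE.

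Ubqln2, the widely expressed X-linked ubiquilin, went the other way. Ubqln2-201 stood at 324, 343, 788 and 854 (1.30 ± 0.25, adjusted p = 0.0406), with both cKO libraries above both WT libraries and a call lost with equal Sertoli counts. In FPKM Ubqlnl-201 was at 112 and 101 in the WT, against 2.70 and 9.53 in the cKO, while Ubqln2-201 was at 4.80 and 4.76 in the WT, against 16.7 and 17.4 in the cKO. The level of Ubqlnl per length was thus above that of Ubqln2 in both WT libraries and below it in both cKO libraries.

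The Ubxn proteins bind the unfolding ATPase p97, and 4 of their 6 transcripts were called lower by edgeR, while the other 2 were below the WT but not called. Ubxn11-202 stood at 3656, 4560, 793 and 1174 (-2.06 ± 0.30, adjusted p = 0.0238), a call lost under TMM and RLE. Ubxn10-203, from a protein of cilia, stood at 6821, 9745, 1996 and 3111 (-1.70 ± 0.33, adjusted p = 0.0412), a call lost under TMM, RLE and library totals. Ubxn6-201 stood at 3469, 6591, 872 and 1873 and was not called (-1.87 ± 0.49, adjusted p = 0.0862). Exons of Chaf1a on the opposite strand cover 69.0% of Ubxn6-201 and the labels do not give the strandedness of the libraries, so reads of the 2 genes may be mixed there. Ubxn6-204, of which Chaf1a exons cover 27.4%, stood at 1974, 2860.2, 417 and 702 (-2.11 ± 0.37, adjusted p = 0.0321), a call lost under TMM and RLE. The annotation of Ubxn6-204 is incomplete. The SENP transcripts Senp1-205 (715, 378, 70.3 and 250) and Senp6-201 (232, 406, 134 and 120) were not called, and the sign of Senp6-201 turned under TMM.

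Proteasome genes gave 17 transcripts of 12 genes. Of these, 7 (41.2%) were called lower and 0 higher by edgeR, against 41.3% and 10.4% of all listed transcripts tested. By sign 4 were higher, and DESeq2 called 2 of them. Their unadjusted p in edgeR was under 0.05, as it was for all 117 tested members by the choice of the list. The median log2 fold change over the 17 was -1.50, and under TMM 4 were lower and 4 higher. Of 48 annotated proteasome genes 36 were not on the list, among them all 11 Psmb genes and 5 of 6 Psmc ATPases, and these were not analysed here. All 4 Psme activator genes and the regulator gene Psmf1 were listed.

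In the core particle, Psma6-204 stood at 2738, 3958, 254 and 366, with both cKO libraries far below the WT (-3.43 ± 0.34, adjusted p = 0.0155). Psma6 encodes a ring subunit that every proteasome holds. Psma6-204 was its only listed transcript, and any other transcripts of Psma6 were not analysed. Psma8 encodes a ring subunit of germ cells, and its listed transcript, Psma8-205, is annotated for nonsense-mediated decay. It stood at 14.7, 41.0, 70.3 and 215 and was not called (2.35 ± 0.77, adjusted p = 0.161), and it was called higher under TMM and RLE. Psma4-206 stood at 105, 80.8, 9.69 and 28.8 and was not called either.

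In the caps, Psmc2, an ATPase of the regulatory particle, stood at 5136, 5663, 2047 and 1762, a log2 fold change of -1.50 ± 0.23 (adjusted p = 0.0258) that turned to 0.03 under TMM. Psme4 encodes the activator known for the breakdown of acetylated histones in spermatids. Psme4-201 stood at 20097, 17673, 7493 and 6863, and its log2 fold change of -1.40 ± 0.23 (adjusted p = 0.0279) turned to 0.13 under TMM. Psme3-205, from a nuclear activator, stood at 690 and 595 in the WT, against 18.6 and 27.2 in the cKO (-4.80 ± 0.38, adjusted p = 0.0154). Its share of the listed Psme3 counts was 61.7% and 60.1% in the WT, against 15.97% and 11.5% in the cKO, with most of the rest in the non-coding Psme3-203. Psme1-208 and the retained-intron form Psme2-207 come from genes of the interferon-inducible activator. They stood at 95.4, 97.2, 286 and 246 and at 0, 3.51, 30.7 and 54.4, and neither was called (adjusted p = 0.0543 and 0.0542 in edgeR's test).

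Psmf1, named as an inhibitor of the proteasome, was called lower in 3 of 4 listed transcripts. Psmf1-202, the coding form, stood at 3108, 3593, 319 and 557 (-2.94 ± 0.35, adjusted p = 0.0185). The retained-intron form Psmf1-205 stood at 1086, 1035, 24.2 and 57.6 (-4.69 ± 0.49, adjusted p = 0.0162). Both were called under all 5 scalings. Psmf1-204, which also retains an intron, stood at 383, 287, 59.0 and 84.8 (-2.22 ± 0.38, adjusted p = 0.0311), a call lost under TMM and RLE. Psmf1-205 was 22.9% and 20.3% of the listed Psmf1 counts in the WT, against 5.15% and 7.32% in the cKO, whereas the share of Psmf1-202 lay between 65.6% and 70.7% in the 4 libraries.

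By annotation, 79 of the 122 transcripts were protein-coding, 17 retained-intron, 13 nonsense-mediated decay, 11 processed transcripts and 1 a pseudogene, and 1 (Psmc2) had no entry in GENCODE vM21. Among the protein-coding ones 65 had a complete coding model. Retained-intron transcripts were lower in 13 of 17 members in the authors' deposited table, whereas 47.9% of all 1216 listed retained-intron transcripts were lower. Complete models called lower had a median 3′ untranslated length of 369 bases (33 transcripts), and those called higher one of 1229 bases (6 transcripts). The same medians over all listed transcripts were 256 and 1182 bases, in the same order. Of the 122, 9 transcripts lay on the X chromosome, and 4 of these were higher in the authors' deposited table, against 18 of 113 elsewhere. Over all listed transcripts the shares higher were 54.2% of 531 on the X chromosome and 32.0% of 10773 elsewhere, so the X chromosome had the larger share there too.

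In level per length, 18 transcripts had a mean of at least 100 FPKM in the WT. The summed FPKM of the listed deubiquitinases was 1615 and 1623 in the WT, against 626 and 720.4 in the cKO. For the E2 enzymes it was 1810.4 and 1649.6 in the WT, against 698 and 761 in the cKO, for the ubiquilin, Ubxn and SENP group 883 and 1101 against 218 and 354, and for the proteasome genes 917 and 977 against 287 and 330.1. These sums rest on listed transcripts and leave out the unlisted ones, and FPKM is scaled to library totals rather than to the authors' size factors.

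The cKO libraries were also compared by class, as a description with no test. The ubiquilin, Ubxn and SENP transcripts were higher in cKO replicate 2 in 11 of 12 cases, against 54.8% of all listed transcripts. These were all 10 ubiquilin and Ubxn transcripts and 1 of the 2 SENP transcripts. The median log2 ratio to replicate 1 was 0.70 over the 12. The medians were 0.53 for proteasome, 0.36 for deubiquitinase and -0.01 for E2 transcripts.

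**Figure D5:**
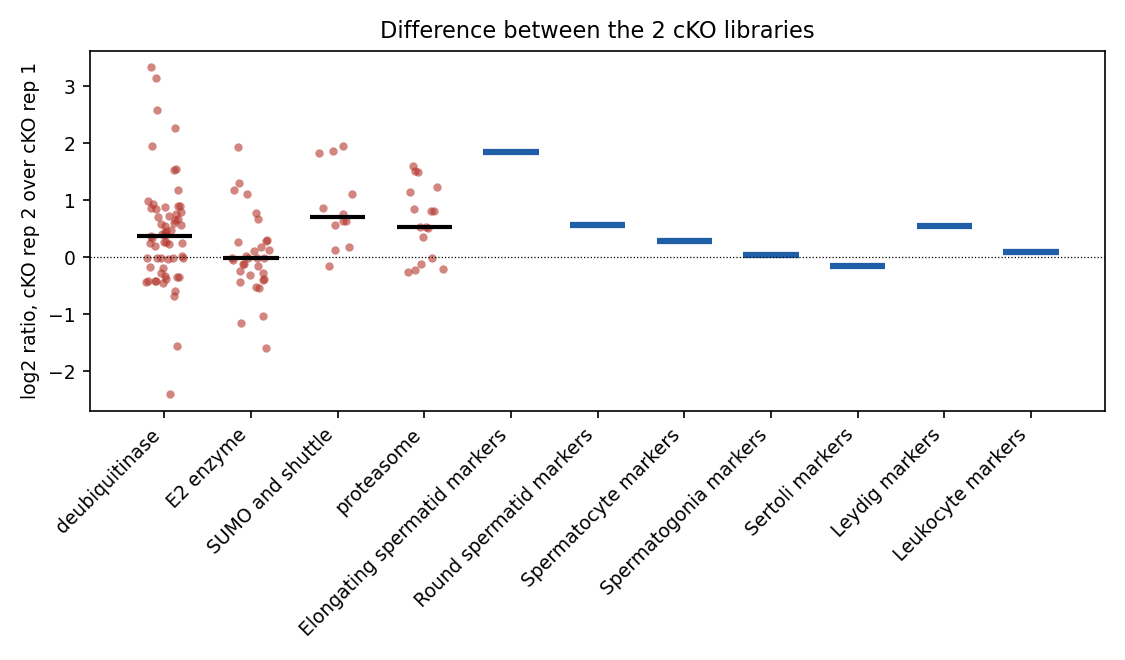
Log2 ratio of normalized counts, cKO replicate 2 over cKO replicate 1, with 1 read added to each count, for each transcript (red points, black lines for class medians) and the medians of marker gene lists (blue lines). The elongating spermatid markers have a median of 1.85, the ubiquilin, Ubxn and SENP class one of 0.70 and the Sertoli markers one of -0.15.

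Of 85 other genes of the ubiquitin and SUMO system, 35 were listed and 33 tested by their most abundant listed transcript. Of these, 16 were called lower and 1 higher, against 39.8% lower and 11.1% higher over 7114 such genes, and the median was -1.43. Under TMM 5 were lower and 8 higher. Values of single genes here are those with the authors' size factors. The polyubiquitin gene Ubb stood at 10305.5, 12219.5, 4188 and 5698 and was not called (-1.19 ± 0.26, adjusted p = 0.0547). The TMM and RLE shifts of 1.52 and 1.56 are larger than that change, so its sign depends on the scaling. Among deubiquitinases and related proteases outside the named families, 4 of 8 listed genes were called lower. These were Stambpl1-202, Yod1-201, Atxn3-205 (2155, 1750, 173 and 266) and Desi1-204 (2249, 2578, 199.6 and 319). Desi1-204 is annotated for nonsense-mediated decay. Among carriers to the proteasome, Ubl4b-201, an intronless relative of Ubl4a, stood at 3988, 3926, 81.6 and 223 (-4.70 ± 0.55, adjusted p = 0.0181). The listed transcript of Ubl4a itself stood at 52.6, 41.0, 196 and 154 and was the gene called higher (1.90 ± 0.39, adjusted p = 0.0449). With equal Sertoli marker counts that call was lost. The proteasome shuttle Ddi1 stood at 3853, 5062, 268 and 665 (-3.26 ± 0.50, adjusted p = 0.0256).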

How the data were processed

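Per the file headers, the authors' table gives expected counts and FPKM per Ensembl transcript and library, with their log2 fold changes, p-values, a mean normalized signal and a Wald score (not used here). The deposited list was limited to adjusted p-values up to 0.05 and changes of 1 or more on the log2 scale. The submitters' processing notes name mm9, but gene coordinates equal GRCm38 for 98.5% of transcripts whose gene is in GENCODE vM21, so GRCm38 is given. For the aligner and the counting tool, the sources used here give no name. Nothing in the labels says which animals the samples came from, and the p-values therefore reflect only the spread between these samples, which may be technical.

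The authors' size factors (0.818, 0.854, 1.24 and 1.25) and library totals were recovered from the deposited values. Expected counts were rounded and tested with edgeR 4.0.16 (glmQLFit, glmQLFTest, genotype only) after filterByExpr with a minimum count of 10, with Benjamini-Hochberg adjustment over all 64840 transcripts the authors tested and a threshold of 0.05. The biological coefficient of variation was 32.5%, estimated on transcripts already picked for change. A fold against a genotype at 0 uses 3 counts over the group, and intervals and floors cover counting error only. Reads of a transcript are rounded expected counts, so 0 reads stands for a rounded value of 0. How reads were shared out among transcripts of a gene is not covered. The libraries of a genotype were not duplicates (chi-square per degree of freedom 32.2 in the WT and 28.4 in the cKO). Listed reads per library that fell to the members were 1.51% to 1.95%.

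Alternatives were TMM, RLE, library total and equal Sertoli marker scaling, other count filters, DESeq2 1.42.0, a replicate block and leaving out each library. The members, gene lists, tests and the rule for named genes were chosen with earlier results of these data known. The rule takes all Usp2 transcripts and, per family, up to 4 called transcripts of largest change with a mean of at least 50 normalized counts and up to 3 of highest mean. Genes named for a role or for opposite transcripts come on top, and Otud5-201 was named after its values were seen. A few items that the rules would name are not reported here.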

Additional observations from a re-analysis of the deposited data

How the results depend on the processing

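The scaling decided most counts. With library totals, TMM and RLE, edgeR called 3238, 1295 and 1301 of the listed transcripts lower and 2963, 3641 and 3650 higher, and 34, 16 and 16 of the ubiquitin-system transcripts lower and 18, 21 and 21 higher. Deubiquitinases were lower in 14, 7 and 7 and higher in 6, 8 and 8, E2 enzymes lower in 9, 3 and 3 and higher in 8, 8 and 8, and proteasome transcripts higher in 3, 4 and 4. Under both TMM and RLE 4 proteasome and 2 ubiquilin, Ubxn and SENP transcripts were lower. The other genes of the system were lower in 10, 5 and 5 and higher in 6, 8 and 8. The ubiquitin-system median was -1.22, -0.18 and -0.15. With equal Sertoli marker counts 7398 listed transcripts were lower and 319 higher, and ubiquitin-system transcripts 96 and 3, with a median of -3.05. By class that was 49 and 1 for deubiquitinases, 23 and 2 for E2 enzymes, 11 and 0 for ubiquilins, Ubxn and SENP, 13 lower for the proteasome and 27 and 0 for the other genes. TMM and RLE centre a table of called transcripts, which by construction moves the ratios up. The Sertoli scaling also rests on listed transcripts only. Of 11 listed Sertoli markers 7 were called higher, so making their counts equal by construction moves the ratios down. DESeq2 called 2042 listed transcripts higher, and 15 of the ubiquitin system, with 7 deubiquitinases, 2 proteasome transcripts and 4 other genes, and 75 lower.

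Among members named by the rule, signs turned under TMM and RLE for Ube2d2b-201 (0.19 and 0.23), Senp6-201 (0.21 and 0.24), Otud7b-203 (0.23 and 0.27), Usp1-202 (0.31 and 0.36), Usp47-206 (0.11 and 0.14), Usp8-201 (0.26 and 0.30), Psmc2 (0.025 and 0.064) and Psme4-201 (0.13 and 0.16). No member named by the rule turned under the other alternatives run.

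Leaving out 1 library gave 0 to 6170 listed transcripts lower and 0 to 2291 higher, and 0 to 84 ubiquitin-system transcripts lower and 0 to 15 higher, with medians of -2.0 to -1.62. By class the ranges lower and higher were 0 to 43 and 0 to 8 for deubiquitinases, 0 to 20 and 0 to 4 for E2 enzymes, 0 to 10 and 0 to 1 for ubiquilins, Ubxn and SENP, 0 to 11 and 0 to 2 for the proteasome, and 0 to 25 and 0 to 5 for the other genes. Every 0 came without a WT library, except that 0 proteasome transcripts were called higher on all 4 libraries too. The lone sample is then assumed to vary like the other genotype, and 8351 and 8343 listed transcripts had an unadjusted p under 0.05 without WT replicate 1 and 2.

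With the replicate number as a block, 697 listed transcripts were higher, and 57 ubiquitin-system transcripts were lower and 7 higher, with 1 deubiquitinase and 1 proteasome transcript among those higher. Of the called ubiquitin-system transcripts named above, the block ended the calls of Otud4-201, Usp2-204, Usp2-208, Usp19-205, Usp21-202 and Ube2k-206. Same-numbered libraries correlated by 0.136 in their deviations from the group means, and with 2 pairs the samples share only a number. No filter or a filter of 1 CPM in 2 samples gave 53 and 49 lower and 8 higher each. For 5 ubiquitin-system transcripts the reads were too few for the main filter, so they were not tested. The causes of these changes were not tested.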
